A study of Homo sapiens with 6 samples.

Results

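The 6 glypicans (GPC1 to GPC6) and 4 syndecans (SDC1 to SDC4) are the 2 families of core proteins that carry heparan sulfate at the cell surface. All 10 were found by symbol among 27788 gene symbols. The set was chosen by family, with its FPKM values in double-negative against double-positive cells already known, GPC4 being among the largest changes there. Values from that comparison are therefore given for the members as a description with no test, and GPC4 is given no test in any comparison. The cells were BJ, a human fibroblast line established from foreskin. RNA was taken on day 8 after lentiviral delivery of 2 polycistronic constructs, one with OCT4 and SOX2 and one with KLF4 and MYC. Cells grew in serum, were moved onto Matrigel and finished in medium for human embryonic stem cells with bFGF. They were lifted with trypsin, stained and sorted by the surface proteins CD13 (gene ANPEP) and CD201 (gene PROCR). Double-negative cells lacked both proteins, CD201-only cells were negative for CD13 and positive for CD201, and double-positive cells carried both. Each group has 2 poly-A RNA-seq libraries, and all 6 share the cell line, the day and the delivered factors, so no library here shows unmodified fibroblasts or finished pluripotent cells. The labels do not say whether replicates were separate cultures, so p-values measure the spread between these libraries, which may be technical.

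Glypicans are anchored to the outer membrane leaflet by a lipid (a GPI anchor), and syndecans cross the membrane and end in a short cytoplasmic tail. Their heparan sulfate chains bind growth factors such as FGFs, Wnts, Hedgehogs and BMPs and present them to, or hold them away from, signalling receptors. In fibroblasts SDC4 sits in focal adhesions with integrins, and SDC1 is best known from epithelia and plasma cells. GPC4 is a known surface marker of human pluripotent stem cells, and loss of GPC3 in humans causes an overgrowth syndrome.

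The upstream sequences of 4 members are shown to set members highest in different groups side by side. GPC4 and GPC2 were highest in double-negative cells, and GPC1 and SDC3 in double-positive cells. Each is the 250 bases before the RefSeq gene start on build GRCh38.p14, read 5′ to 3′ on the gene's strand, with capitals marking the GC box GGGCGG on either strand, overlapping matches included. The windows are chrX:133415490-133415739 on the minus strand, chr7:100177382-100177631 on the minus strand, chr2:240435413-240435662 on the plus strand and chr1:30908759-30909008 on the minus strand. The expression table used the older builds hg19 and GRCh37, so these coordinates belong to the sequences alone.
GPC4: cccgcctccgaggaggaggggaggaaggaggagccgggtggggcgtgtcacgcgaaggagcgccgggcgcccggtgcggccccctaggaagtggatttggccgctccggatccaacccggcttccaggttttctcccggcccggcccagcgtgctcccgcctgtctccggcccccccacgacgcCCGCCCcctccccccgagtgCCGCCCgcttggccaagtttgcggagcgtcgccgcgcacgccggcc
GPC2: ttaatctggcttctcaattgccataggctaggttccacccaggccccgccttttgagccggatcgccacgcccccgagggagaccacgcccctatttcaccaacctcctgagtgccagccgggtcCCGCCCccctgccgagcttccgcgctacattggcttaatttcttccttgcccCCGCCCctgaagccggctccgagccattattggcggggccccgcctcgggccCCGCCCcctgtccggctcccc
GPC1: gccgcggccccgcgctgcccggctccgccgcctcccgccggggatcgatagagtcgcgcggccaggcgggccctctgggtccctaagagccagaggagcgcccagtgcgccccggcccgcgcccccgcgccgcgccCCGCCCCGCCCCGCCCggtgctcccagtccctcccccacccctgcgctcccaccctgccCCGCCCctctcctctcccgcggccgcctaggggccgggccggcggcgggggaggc
SDC3: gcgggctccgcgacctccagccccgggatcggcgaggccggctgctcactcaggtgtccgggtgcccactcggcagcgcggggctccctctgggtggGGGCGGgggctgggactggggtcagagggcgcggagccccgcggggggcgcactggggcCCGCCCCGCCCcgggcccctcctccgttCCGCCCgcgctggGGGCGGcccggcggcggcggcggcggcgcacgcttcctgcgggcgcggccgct
RefSeq windows were matched for 8 of the 10 members, GPC3 and SDC2 being those without one.

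The GC box occurred 2 times upstream of GPC4, 3 times upstream of GPC2, 4 times upstream of GPC1 and 5 times upstream of SDC3. The other matched windows did not keep this order by group. SDC1, also highest in double-positive cells, had 1 GC box upstream of each of its starts. SDC4, highest in CD201-only cells, had 8, and GPC5 had 2. The GC box is present in 42.6% of 35116 RefSeq windows of the same length. G and C made up 76.0% of the GPC4 window, 66.8% of the GPC2 window, 84.0% of the GPC1 window and 83.6% of the SDC3 window. Searched on both strands, the AP-1 motif TGANTCA, the E-box CACGTG, the octamer ATGCAAAT, the TEAD motif GGAATG and the TATA motif TATAAA had no match in these 4 windows. They are present in 6.57%, 6.34%, 1.63%, 11.9% and 10.7% of all windows, in that order. CCAAT matched 2 times upstream of GPC2 and is present in 32.0% of all windows. The GPC6 window stood apart from the other members, with 37.6% G and C, 6 CpG dinucleotides and no GC box, against 32 CpG dinucleotides upstream of GPC4.

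Expression was deposited as FPKM, fragments normalised to transcript length and to library size, so that levels of different genes can be compared. How the libraries were scaled to each other is not given in the sources used here. Steps between the lowest values put the libraries at about 13.3 to 18.3 M fragments, and replicates of a group correlated at 0.9919 or more over the 12210 genes that averaged 1 FPKM or more. ANPEP and PROCR followed the sort. ANPEP was at 35.7 and 36.2 FPKM in double-negative, 29.0 and 28.7 in CD201-only and 158 and 153 in double-positive cells. PROCR was at 16.6 and 18.0 FPKM in double-negative, 45.8 and 49.1 in CD201-only and 51.3 and 52.5 in double-positive cells. The sum of 8 fibroblast markers was 2790 and 2778 FPKM in double-negative, 2204 and 2168 in CD201-only and 5979 and 5840 in double-positive cells. Of the 8, 7 were highest in double-positive cells. The exception was THY1, which was at 1645 and 1639 FPKM in double-negative, 1183 and 1167 in CD201-only and 1382 and 1358 in double-positive cells, while FAP, LUM and DCN were under 4 FPKM. The sum of 8 markers of pluripotent cells was 102 and 98.3 FPKM, 65.4 and 65.0 FPKM, and 30.1 and 30.2 FPKM in the same order of groups. TDGF1 made up most of it, at 63.5 and 60.5, 41.7 and 42.2, and 18.5 and 19.3 FPKM, and 3 of the 8, NANOG, UTF1 and ZFP42, had their highest mean in CD201-only cells. The sum of 6 epithelial markers was 3075 and 3064 FPKM in double-negative, 4043 and 3972 in CD201-only and 2080 and 2012 in double-positive cells, nearly all of it KRT8 and KRT18. These 2 and CDH1 had their highest mean in CD201-only cells, but EPCAM, CLDN6 and ESRP1, 3 of the 6, had theirs in double-negative cells. EPCAM was at 3.93 and 3.09 FPKM in double-negative, 2.67 and 2.47 in CD201-only and 1.40 and 1.74 in double-positive cells. The sum of 6 keratinocyte markers was 11.3 and 10.5 FPKM in double-negative, 19.5 and 19.2 in CD201-only and 42.3 and 43.6 in double-positive cells. Most of the double-positive sum was KRT14, at 29.1 and 30.3 FPKM. Of the 6, 3 had their highest mean in CD201-only cells, KRT5 and, at no more than 0.0405 FPKM, KRT1 and TP63. KRT5 was at 2.05 and 2.41 FPKM in double-negative, 9.84 and 9.74 in CD201-only and 5.68 and 6.18 in double-positive cells. The sum of 5 neural markers, nearly all TUBB3, was 177 and 173, 145 and 148, and 117 and 114 FPKM in the same order. GFAP, SOX1 and PAX6, 3 of the 5, went the other way, with their highest mean in double-positive cells at no more than 0.448 FPKM. The sum of 5 endothelial markers was 16.3 and 16.4 FPKM in double-negative, 29.4 and 31.1 in CD201-only and 25.6 and 27.7 in double-positive cells. TEK made up most of it, at 13.5 and 13.9, 24.6 and 26.4, and 18.0 and 19.9 FPKM. Of the 5, 3 had their highest mean in double-positive cells, and PECAM1 was at most 0.0677 FPKM. CD3E among the blood markers, NEUROD1 of the 5 neural markers, and MLANA and DCT of the 5 melanocyte or Schwann markers were listed at 0 in all libraries. The fibroblast, pluripotent, epithelial, keratinocyte, neural and endothelial sums all moved with the groups, and their part in the results was not tested. In these bulk samples, fewer cells of a type and less RNA per cell cannot be told apart.

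Of the 10 members, 8 averaged 1 FPKM or more, and each of these exceeded 1 FPKM in every library. The exceptions were GPC3 and GPC5. GPC1, SDC1, SDC2 and SDC4 were abundant, with means over all libraries of 75.3, 86.9, 97.9 and 90.6 FPKM, above those of 91.2% to 93.4% of the 12210 genes. SDC3 averaged 14.6 FPKM, GPC4 8.01 FPKM, GPC6 4.63 FPKM and GPC2 2.62 FPKM. In double-negative cells SDC2 led, followed by SDC4, SDC1, GPC1, GPC4, SDC3, GPC6 and GPC2. In CD201-only cells the order was SDC4, SDC1, SDC2, GPC1, SDC3, GPC4, GPC6 and GPC2, with SDC1 and SDC2 close at 93.1 and 92.6 FPKM. In double-positive cells GPC1 led, followed by SDC1, SDC4, SDC2, SDC3, GPC6, GPC4 and GPC2. Neighbours in these orders had library values that did not overlap, apart from GPC4 and GPC6 in CD201-only cells.

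**Figure D1:**
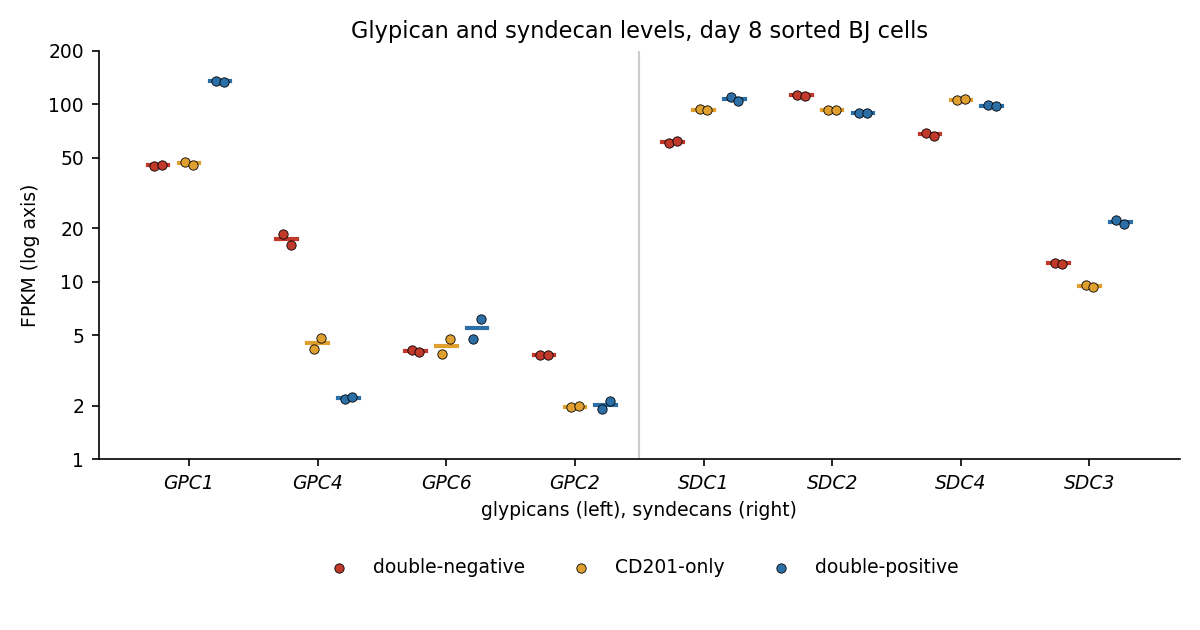
FPKM of the 8 expressed members in each library (points, log axis) with the group mean (bars), by sorted group. GPC4 spans 2.19 to 18.6 FPKM and is highest in double-negative cells, GPC1 is highest in double-positive cells at 133 and 135 FPKM, and SDC2 is the syndecan highest in double-negative cells.

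GPC4 had the widest range of the members. It was at 18.6 and 16.1 FPKM in double-negative, 4.18 and 4.83 FPKM in CD201-only and 2.19 and 2.25 FPKM in double-positive cells. The 3 groups did not overlap, and the CD201-only libraries lay between the others. Mean FPKM in double-negative cells was 7.8 times that in double-positive and 3.84 times that in CD201-only cells, and the CD201-only mean was 2.03 times the double-positive mean. On the scale of log2(FPKM + 1), which understates the change of low genes, GPC4 differed by 2.50 (SE 0.0895) between double-negative and double-positive cells. That was the 6th highest of 12210 changes, the value for which the gene was picked. The log2 change was 1.73 (SE 0.0895) between double-negative and CD201-only and 0.77 (SE 0.0895) between CD201-only and double-positive cells. SE is the standard error of limma, a linear model fitted across all genes.

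GPC1, the glypican of many adult cell types including fibroblasts, was highest in double-positive cells. It was at 44.8 and 45.6 FPKM in double-negative, 47.5 and 45.3 FPKM in CD201-only and 135 and 133 FPKM in double-positive cells. Both CD13-negative groups overlapped each other and lay far below the double-positive libraries. GPC1 fell in CD201-only against double-positive cells (log2 change -1.51, SE 0.0325, adjusted p = 1.51e-07). Adjusted p is limma's, by Benjamini-Hochberg over 12210 genes, with calls made under 0.05. Between double-negative and CD201-only cells the change was -0.04 (SE 0.0325, limma adjusted p = 0.427). Against double-positive cells the double-negative value was -1.55 (SE 0.0325).

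GPC2, a glypican best known from the developing nervous system, was at 3.84 and 3.88 FPKM in double-negative, 1.97 and 1.98 FPKM in CD201-only and 1.90 and 2.13 FPKM in double-positive cells. The double-negative libraries stood above the others, and CD201-only and double-positive libraries overlapped. GPC2 rose in double-negative against CD201-only cells (log2 change 0.71, SE 0.0768, limma adjusted p = 0.00047). Between CD201-only and double-positive cells the change was -0.02 (SE 0.0768, limma adjusted p = 0.844), with a sign that turned under quantile normalization (0.038) and without double-positive replicate 2 (0.035). Double-negative cells differed from double-positive cells by 0.69 (SE 0.0768).

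GPC6, which shares chromosome 13 with its neighbour GPC5, had the least certain values. It was at 4.14 and 4.01 FPKM in double-negative, 3.91 and 4.76 FPKM in CD201-only and 4.78 and 6.18 FPKM in double-positive cells. CD201-only libraries overlapped the double-negative ones and lay just below the double-positive ones, whose 2 values differed most. The change in CD201-only against double-positive cells was -0.28 (SE 0.121, limma adjusted p = 0.0867). It was called without double-positive replicate 1 (-0.43, limma adjusted p = 0.0206) and after median-ratio rescaling (-0.35, limma adjusted p = 0.0405). Between double-negative and CD201-only cells it was -0.07 (SE 0.121, limma adjusted p = 0.691), and 0.05 without CD201-only replicate 2. Against double-positive cells the double-negative value was -0.34 (SE 0.121), and -0.19 without double-positive replicate 2.

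The remaining glypicans were close to absent from the libraries. GPC3, the neighbour of GPC4 on chromosome X, was listed at 0 in both double-negative libraries, at 0.061 and 0.0494 FPKM in CD201-only and at 0.0335 and 0.0296 FPKM in double-positive cells. After allowing for relative depth, the CD201-only values were each 2.02 times the double-positive ones, the step expected of 2 fragments against 1. GPC5 was at 0.0255 and 0.0219 FPKM in double-negative, 0 and 0.0199 in CD201-only and 0 and 0.024 in double-positive cells. Its values above 0 were 1.00 to 1.01 times the smallest after the same allowance, the size of 1 fragment each. At this depth no difference in GPC3 or GPC5 was detectable. The antisense genes GPC3-AS1, GPC5-AS1, GPC5-AS2, GPC6-AS1 and GPC6-AS2 and the pseudogene SDC4P were listed at 0 in all libraries.

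Among the syndecans, SDC1 and SDC4 were lower in double-negative than in CD201-only cells. SDC1 was at 60.7 and 61.7 FPKM in double-negative, 93.4 and 92.9 FPKM in CD201-only and 109 and 104 FPKM in double-positive cells. The groups were ordered without overlap, double-negative lowest. SDC1 fell in double-negative against CD201-only cells (log2 change -0.60, SE 0.0316, limma adjusted p = 1.71e-05) and in CD201-only against double-positive cells (-0.19, SE 0.0316, limma adjusted p = 0.00178). Double-negative differed from double-positive cells by -0.79 (SE 0.0316).

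SDC4, the syndecan of focal adhesions, was at 68.9 and 66.0 FPKM in double-negative, 105 and 107 FPKM in CD201-only and 99.1 and 97.2 FPKM in double-positive cells. CD201-only libraries were highest here, and no groups overlapped. SDC4 fell in double-negative against CD201-only cells (log2 change -0.65, SE 0.0307, limma adjusted p = 1.05e-05). The small rise in CD201-only against double-positive cells (0.11, SE 0.0307, limma adjusted p = 0.0172) depended on the scaling and on single libraries. It was 0.03 (limma adjusted p = 0.481) after median-ratio rescaling and 0.07 (limma adjusted p = 0.0913) after quantile normalization. It also missed the threshold without CD201-only replicate 2 (limma adjusted p = 0.0887) or double-positive replicate 2 (limma adjusted p = 0.0623), and in limma without a variance trend (adjusted p = 0.0677). Double-negative differed from double-positive cells by -0.53 (SE 0.0307).

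SDC2, the syndecan most typical of mesenchymal cells, moved the other way. It was at 113 and 111 FPKM in double-negative, 92.5 and 92.6 FPKM in CD201-only and 89.1 and 89.1 FPKM in double-positive cells. SDC2 rose in double-negative against CD201-only cells (log2 change 0.27, SE 0.025, limma adjusted p = 0.000214), a change 0.24 above the median of all genes. In CD201-only against double-positive cells it was 0.05 (SE 0.025, limma adjusted p = 0.0995), and -0.03 after median-ratio rescaling. Double-negative differed from double-positive cells by 0.33 (SE 0.025), and by 0.21 after median-ratio rescaling.

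SDC3, best known from nervous system and muscle, was the least abundant syndecan. It was at 12.7 and 12.6 FPKM in double-negative, 9.62 and 9.34 FPKM in CD201-only and 22.3 and 21.0 FPKM in double-positive cells. The CD201-only libraries were lowest and the double-positive ones highest, without overlap. SDC3 fell in CD201-only against double-positive cells (log2 change -1.11, SE 0.0475, limma adjusted p = 2.44e-06) and rose in double-negative against CD201-only cells (0.38, SE 0.0475, limma adjusted p = 0.000869). Double-negative differed from double-positive cells by -0.73 (SE 0.0475).

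**Figure D2:**
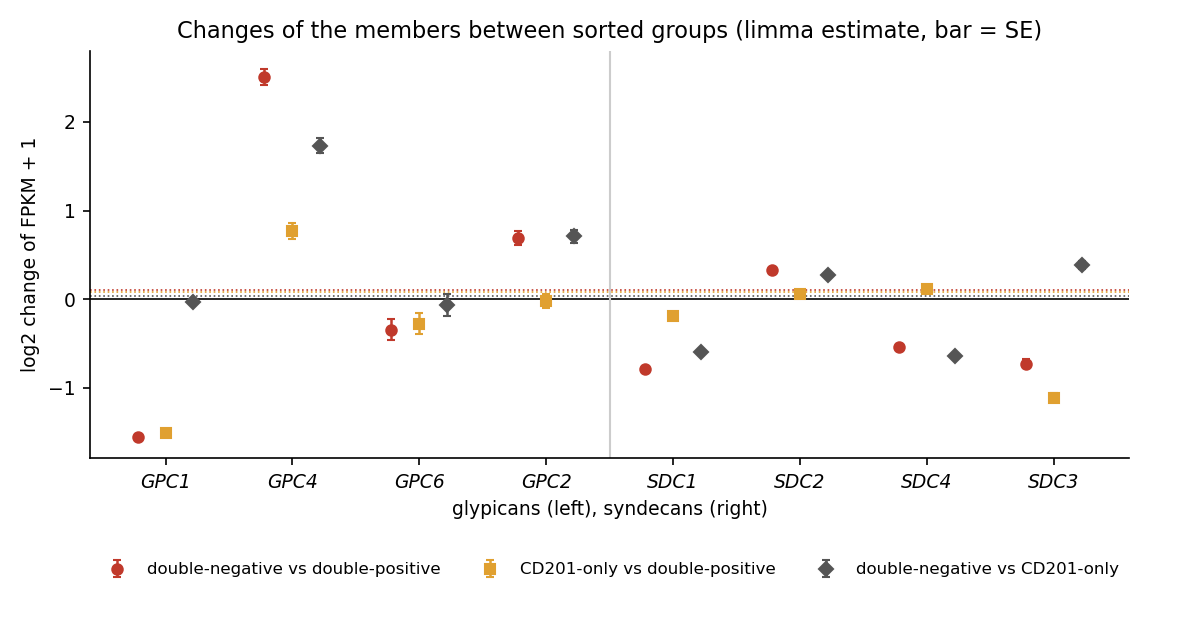
Log2 change of FPKM + 1 for each expressed member in the 3 comparisons (points, limma estimates; bars, SE), with dotted lines at the median change of all genes. GPC4 stands at 2.50 and GPC1 at -1.55 between double-negative and double-positive cells, and the syndecans lie between -1.11 and 0.38 in all comparisons.

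Counts over the families were read against all 12210 genes. Of the 7 expressed members other than GPC4, limma called 1 higher and 3 lower in CD201-only against double-positive cells. Of all genes 58.7% were called there, 35.8% higher and 22.9% lower. In double-negative against CD201-only cells it called 3 higher and 2 lower of the 7, where 37.9% of all genes were called, 21.5% higher and 16.5% lower. Between these groups limma called 4632 genes, and 2888 or 3040 without double-negative replicate 1 or replicate 2. In double-negative against double-positive cells all 8 expressed members had libraries that did not overlap, 3 higher and 5 lower. Members were chosen with this comparison known, and 83.3% of all genes did not overlap there. The median change of all genes was 0.109 in double-negative and 0.0772 in CD201-only cells against double-positive cells, and median-ratio rescaling moved these to 0.00294 and 0.00398. Relative to the first median, GPC4 was at 2.40, GPC2 at 0.58, SDC2 at 0.22, GPC6 at -0.45, SDC4 at -0.64, SDC3 at -0.84, SDC1 at -0.90 and GPC1 at -1.66.

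The make-up of each family was set out as shares of its summed FPKM, which a single scaling factor per library leaves as they are. The glypican FPKM summed to 71.4 and 69.6 in double-negative, 57.6 and 56.9 in CD201-only and 144 and 144 in double-positive cells. GPC1 supplied 62.8% and 65.5% of that sum in double-negative, 82.4% and 79.5% in CD201-only and 93.8% and 92.6% in double-positive cells. GPC4 supplied 26.0% and 23.1% in double-negative, 7.27% and 8.49% in CD201-only and 1.52% and 1.56% in double-positive cells. The ratio of GPC1 to GPC4 was 2.41 and 2.84 in double-negative, 11.3 and 9.37 in CD201-only and 61.7 and 59.2 in double-positive libraries. For both genes the shares of the 3 groups did not overlap, and the CD201-only libraries were intermediate.

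Syndecan FPKM summed to 256 and 251 in double-negative, 301 and 302 in CD201-only and 320 and 311 in double-positive cells. SDC2 supplied 44.3% and 44.1% of it in double-negative, 30.8% and 30.7% in CD201-only and 27.9% and 28.6% in double-positive cells. SDC1 supplied 23.7% and 24.6%, 31.0% and 30.8%, and 34.1% and 33.4% in the same order, and SDC4 27.0% and 26.3%, 35.0% and 35.5%, and 31.0% and 31.3%. Syndecans were the larger family in every library, with 78.2% and 78.3% of the summed FPKM of all 10 members in double-negative, 83.9% and 84.1% in CD201-only and 68.9% and 68.4% in double-positive cells. With 2 libraries a group, these shares are descriptions without a test.

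**Figure D3:**
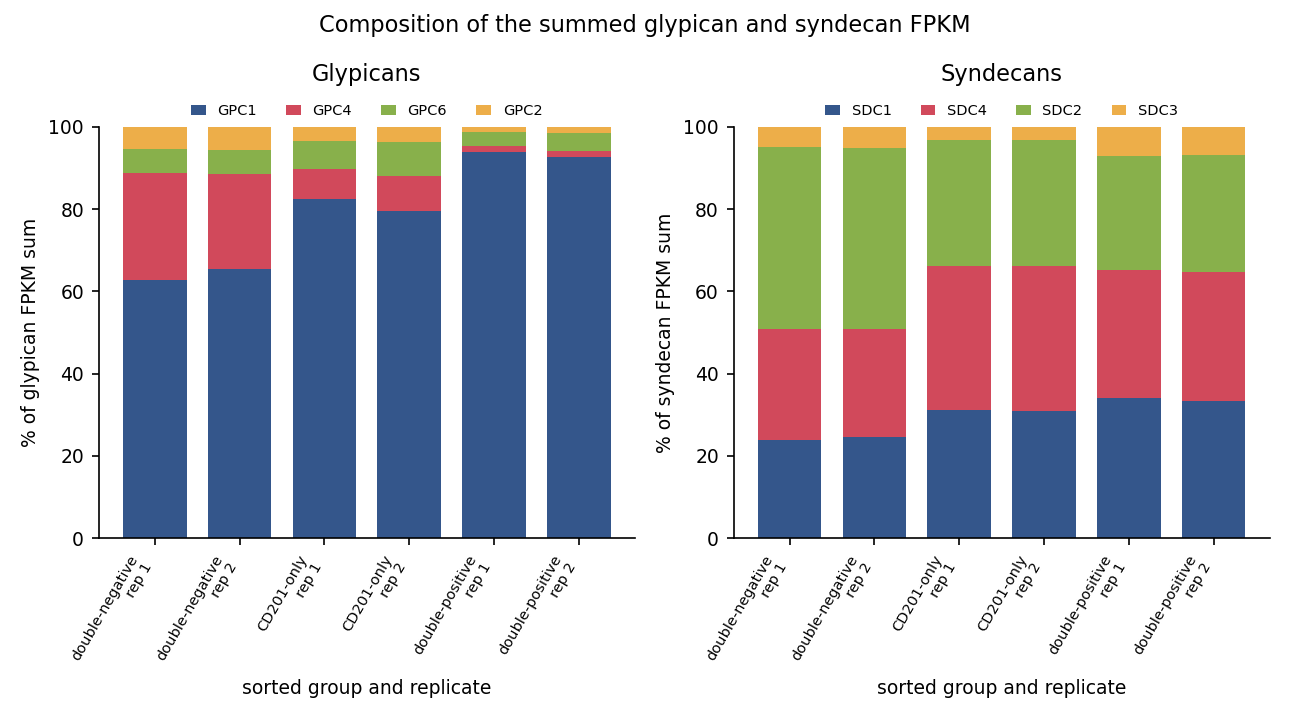
Share of each member in the summed glypican FPKM (left) and syndecan FPKM (right), one stacked bar per library, in percent. GPC4 takes 23.1% to 26.0% of the glypican sum in double-negative and 1.52% to 1.56% in double-positive libraries, and SDC2 takes 44.1% to 44.3% of the syndecan sum in double-negative libraries; GPC3 and GPC5 are too low to draw.

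The genes whose profile over the 6 libraries lay nearest to that of GPC4, by root mean square distance of centred log2 values among all tested genes, were MT1G, LIN28A, PROM1, SERPINB9 and LHX9. Their distances were 0.145, 0.150, 0.244, 0.244 and 0.279 log2 units. MT1G encodes a metallothionein, whose reads can be shared with close paralogs, and LIN28A a pluripotency factor that blocks maturation of let-7 microRNAs. LIN28A was at 12.1 and 11.0 FPKM in double-negative, 3.16 and 3.14 in CD201-only and 1.92 and 1.42 in double-positive cells. PROM1, the surface glycoprotein CD133, was at 11.7 and 12.7 FPKM in double-negative, 3.84 and 4.39 in CD201-only and 2.27 and 2.49 in double-positive cells. SERPINB9 encodes an inhibitor of granzyme B and LHX9 a LIM homeobox factor. Nearest to GPC1, the member with the next widest range, were NR2F2, SPARC and GPR153, at distances of 0.0411, 0.0426 and 0.0439. SPARC, a matricellular protein that binds collagen, was at 288 and 284 FPKM in double-negative, 294 and 289 in CD201-only and 886 and 883 in double-positive cells. The nuclear receptor NR2F2 was at 3.54 and 3.83 FPKM in double-negative, 4.05 and 3.62 in CD201-only and 12.5 and 11.9 in double-positive cells.

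**Figure D4:**
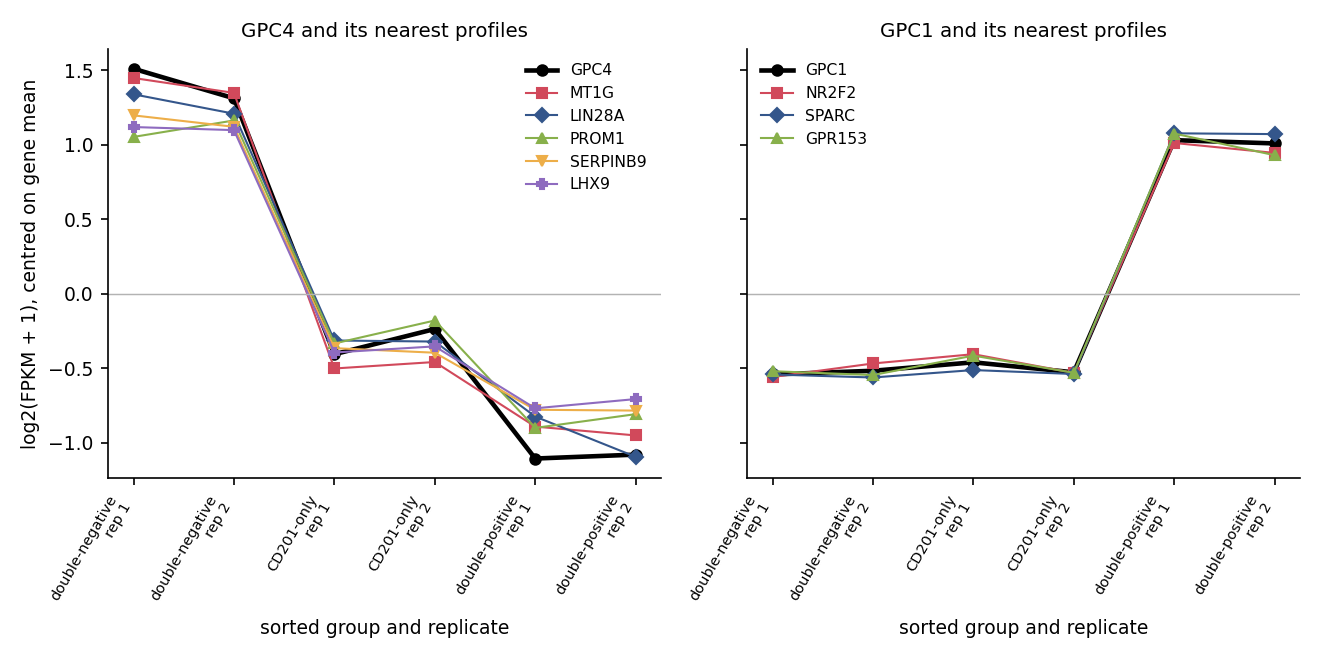
Log2(FPKM + 1) of GPC4 (left) and GPC1 (right) and of their nearest genes, each centred on its own mean over the 6 libraries, by library. The GPC4 group steps down over the 3 groups, and the GPC1 group is level in double-negative and CD201-only libraries and higher in double-positive ones.

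The heparan sulfate chain is built on these core proteins by a shared set of enzymes. Of 10 expressed genes of chain synthesis, 2 rose and 5 fell in double-negative and 2 rose and 7 fell in CD201-only against double-positive cells, with medians of -0.13 and -0.17. Among all genes limma called 66.6% in the first of these comparisons, 42.1% higher and 24.5% lower. EXT1, a subunit of the chain polymerase, was at 16.9 and 16.9 FPKM in double-negative, 20.5 and 21.7 in CD201-only and 31.6 and 33.2 in double-positive cells. Against double-positive cells it fell by 0.90 in double-negative (SE 0.0451, limma adjusted p = 3.94e-06) and by 0.60 in CD201-only cells (limma adjusted p = 3.44e-05). Its partner subunit EXT2 was at 63.4 and 62.5, 58.0 and 59.2, and 56.3 and 61.5 FPKM in the same order and was not called. XYLT1, which starts the chain by adding xylose to the core protein, fell in double-negative (-0.57) and in CD201-only cells (-0.59). FAM20B, the kinase of that xylose, rose in double-negative (0.47, limma adjusted p = 0.000243) and in CD201-only cells (0.41, limma adjusted p = 0.00065). PXYLP1, the phosphatase of the same xylose, fell against double-positive cells in double-negative (-0.44, limma adjusted p = 0.00873) and in CD201-only cells (-0.58, limma adjusted p = 0.00288). Between double-negative and CD201-only cells EXT1 was the 1 gene called of the 10 (-0.30, limma adjusted p = 0.00204), and 2 were called when double-positive replicate 1 or replicate 2 was left out or when the fit held those 4 libraries.

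Sulfation sets which ligands the chain can bind. Of 13 expressed genes of sulfation and epimerization, 2 rose and 8 fell in double-negative (median -0.25) and 3 rose and 5 fell in CD201-only cells (median -0.10) against double-positive cells. The 3-O-sulfotransferases, which add the rarest sulfate of the chain, went opposite ways. HS3ST5 was at 5.19 and 5.76 FPKM in double-negative, 1.74 and 1.80 in CD201-only and 1.22 and 1.12 in double-positive cells, and rose in double-negative against double-positive cells (log2 change 1.58, SE 0.0822, limma adjusted p = 4.73e-06). HS3ST6 was at 0.464 and 0.481 FPKM in double-negative, 0.655 and 0.744 in CD201-only and 5.57 and 5.47 in double-positive cells. It passed the filter only through the double-positive libraries, so no test is given for it, although it is among the 8 and the 5 genes counted as fallen. HS3ST3A1 was at 10.9 and 10.8, 17.4 and 16.9, and 15.2 and 14.9 FPKM in the same order and fell in double-negative against CD201-only cells (-0.61, limma adjusted p = 5.81e-05). HS3ST3B1 fell against double-positive cells in double-negative (-0.40, limma adjusted p = 0.0038) and in CD201-only cells (-0.58, limma adjusted p = 0.000737). HS3ST1 and HS3ST4 were listed at 0 in all libraries. PAPSS2, which makes the sulfate donor PAPS, was at 31.7 and 33.1 FPKM in double-negative, 13.1 and 13.4 in CD201-only and 37.1 and 40.6 in double-positive cells. It fell in CD201-only against double-positive cells (-1.48, limma adjusted p = 1.02e-06). PAPSS1, which makes the same donor, was at 45.4 and 44.1, 52.1 and 52.1, and 39.0 and 40.8 FPKM in the same order. PAPSS1 rose in CD201-only against double-positive cells (0.38, limma adjusted p = 8.70e-05). Of the 13, 4 rose and 3 fell in double-negative against CD201-only cells.

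Other genes trim the chains or cut the core proteins from the surface. Of 7 expressed genes of editing and shedding, 4 rose and 2 fell in double-negative and 2 rose and 2 fell in CD201-only against double-positive cells, and 5 rose and 2 fell in double-negative against CD201-only cells. The shares of all genes called in these comparisons were 66.6%, 58.7% and 37.9%, in that order, as for each list described here. SULF1 and SULF2, which remove 6-O-sulfates outside the cell, had opposite patterns. SULF2 was at 108 and 104 FPKM in double-negative, 172 and 169 in CD201-only and 93.3 and 91.0 in double-positive cells. SULF1 was at 55.4 and 55.6 FPKM in double-negative, 31.7 and 31.3 in CD201-only and 74.3 and 81.6 in double-positive cells. CD201-only cells were thus highest in SULF2 (log2 change 0.88, limma adjusted p = 8.87e-07 against double-positive cells) and lowest in SULF1 (-1.28, limma adjusted p = 1.16e-06). HPSE, heparanase, was at 7.25 and 7.16 FPKM in double-negative, 3.99 and 3.29 in CD201-only and 2.84 and 3.04 in double-positive cells and rose in double-negative against both other groups (1.06 and 0.83). MMP14, a membrane metalloproteinase that can shed SDC1, was at 148 and 147 FPKM in double-negative, 132 and 128 in CD201-only and 510 and 493 in double-positive cells and fell by 1.76 in double-negative and by 1.94 in CD201-only cells. The sheddase ADAM10 rose in double-negative against double-positive cells (0.54, limma adjusted p = 5.75e-05). NOTUM, also on this list but under the filter, was at most 0.125 FPKM.

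Of the 8 genes for syndecan cytoplasmic partners, 1 rose and 4 fell in double-negative, and 1 rose and 1 fell in CD201-only, against double-positive cells. SDCBP2, among the 4, passed the filter only through the double-positive libraries. PRKCA, the protein kinase C isoform that binds the SDC4 tail, fell in double-negative (log2 change -0.58, limma adjusted p = 0.000313) and CD201-only cells (-0.52, limma adjusted p = 0.000668). GIPC1, a PDZ protein that binds syndecan tails, was at 104 and 99.8 FPKM in double-negative, 115 and 112 in CD201-only and 118 and 113 in double-positive cells. EZR, which encodes the actin linker ezrin, rose in both (0.46 and 0.48). SDCBP, the syntenin that binds syndecan tails, was at 14.2 and 12.1, 13.2 and 13.4, and 11.7 and 11.4 FPKM in the same order of groups and was not called. In CD201-only against double-positive cells 2 of the 8 were called, and 4 after median-ratio rescaling. In double-negative against CD201-only cells TIAM1, which encodes a Rac activator, was at -0.55 (limma adjusted p = 0.00627), or -0.95 with a pseudocount of 0.1, and 2 of the 8 were called, or 1 without double-negative replicate 2 or CD201-only replicate 1.

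Other proteoglycans can carry heparan sulfate in the matrix or at the surface. Of 7, 1 rose and 4 fell in double-negative and 1 rose and 5 fell in CD201-only against double-positive cells, with medians of -0.73 and -0.85 beside the medians of all genes given above. Perlecan, from HSPG2, was at 14.4 and 14.5 FPKM in double-negative, 30.4 and 30.4 in CD201-only and 50.4 and 47.8 in double-positive cells (log2 change -1.69 in double-negative against double-positive cells, limma adjusted p = 1.24e-07). COL18A1, a basement membrane collagen, was at 37.4 and 37.5, 56.9 and 56.5, and 107 and 103 FPKM in the same order (-1.46, limma adjusted p = 9.68e-08). Agrin, from AGRN, was the most abundant of them at 166 and 171 FPKM in double-negative, 176 and 176 in CD201-only and 147 and 142 in double-positive cells and rose in both CD13-negative groups (0.22 and 0.28). NRP1, a co-receptor for VEGF and semaphorins, was at 54.9 and 54.9 FPKM in double-negative, 26.5 and 27.4 in CD201-only and 56.9 and 58.1 in double-positive cells and fell in CD201-only cells (-1.06, limma adjusted p = 5.99e-07). CD44, the hyaluronan receptor, was at 102 and 102 FPKM in double-negative, 90.9 and 95.5 in CD201-only and 168 and 171 in double-positive cells. SRGN, serglycin, was low, and its double-positive libraries differed most, with 1.39 and 1.75 FPKM in double-negative, 0.943 and 1.32 in CD201-only and 3.09 and 6.19 in double-positive cells. Between double-negative and CD201-only cells, 2 of the 7 rose and 2 fell.

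Ligands and receptors that use heparan sulfate went both ways. Of 21 expressed, 6 rose and 11 fell in double-negative and 9 rose and 9 fell in CD201-only against double-positive cells, with medians of -0.14 and 0.08, and 10 rose and 5 fell in double-negative against CD201-only cells. The most abundant was MDK, the growth factor midkine, at 551 and 576 FPKM in double-negative, 481 and 457 in CD201-only and 349 and 338 in double-positive cells. MET, the receptor of hepatocyte growth factor, was at 21.4 and 20.3 FPKM in double-negative, a mean of 8.88 in CD201-only and 7.88 and 7.82 in double-positive cells and rose in double-negative against double-positive cells (log2 change 1.30, limma adjusted p = 1.11e-06). SLIT3, a guidance ligand of ROBO receptors, was at 2.28 and 2.41, 5.92 and 5.88, and 13.3 and 13.5 FPKM in the same order and fell in double-negative cells (-2.11, limma adjusted p = 3.06e-07). CXCL12, a chemokine held on heparan sulfate, fell in double-negative (-1.54) and CD201-only cells (-2.23), and FGF1 also fell in both (-1.07 and -1.11). BMP4 fell in double-negative against CD201-only cells (-1.34, limma adjusted p = 2.87e-05), at 3.61 and 4.03 against 11.1 and 11.2 FPKM.

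**Figure D5:**
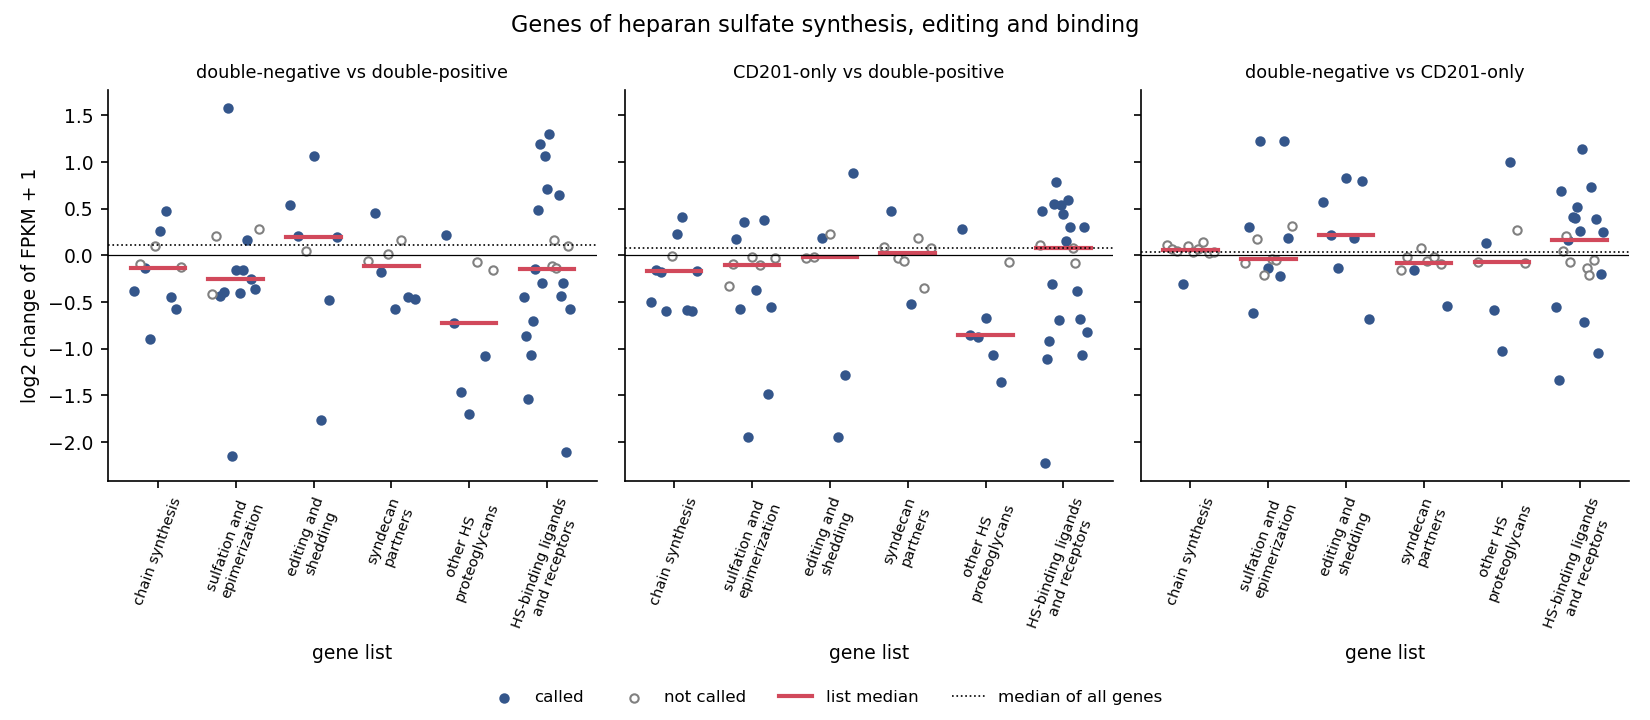
Log2 change of FPKM + 1 for each expressed gene of 6 lists around heparan sulfate (HS) in the 3 comparisons; filled points passed limma's threshold, red bars are list medians and the dotted line is the median of all genes. The proteoglycan list has medians of -0.73 and -0.85 in double-negative and CD201-only against double-positive cells, and HS3ST6, the lowest point of the sulfation list in both, passed the filter only through its double-positive libraries.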

How the data were processed

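Poly-A RNA of sorted BJ cells was sequenced from stranded libraries, per the labels' protocols. Expression comes from a single table of FPKM, as the authors deposited it, with a column for each of the 6 libraries. STAR, Cuffnorm and the builds hg19 and GRCh37 are named in the submitters' processing notes. The sources used here do not give versions, options, annotation, the use of strand or Cuffnorm's scaling. Overlapping or antisense transcripts may therefore share fragments.

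Values were taken as log2(FPKM + 1). A filter on low values (mean of 1 FPKM or more) left 12210 of 27788 genes. limma 3.58.1 (R 4.3.3) fitted group coefficients with a variance trend, 3 residual degrees of freedom and 3.95 prior ones. Each comparison was adjusted by Benjamini-Hochberg over all 12210 genes and called under 0.05. The fit was tested on simulated data. Python 3.11.15, pandas 2.3.3, numpy 2.4.6 and matplotlib 3.10.9 were used for tables and plots.

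Relative depth is the modal ratio of values under 0.5 FPKM between libraries, 0.728 to 1.000. The absolute scale rests on 103 genes with 1 GENCODE transcript of at least 2000 nt, whole steps within 3%, and an assumed fragment of 200 nt. The interquartile range for the deepest library is 14.2 to 24.8 M, so the depth is approximate and counting intervals are not given.

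The 7 lists of heparan sulfate genes hold 93 genes, all in the table. All members were named, and from each list up to 3 called genes with the largest change in each comparison, plus genes for their level. The level rule was a mean of at least 100 FPKM. EXT2, SDCBP, NOTUM, PAPSS1, HS3ST1 and HS3ST4 were named in addition after their values were seen. Members and lists were chosen with earlier results of these data known. Alternatives were a pseudocount of 0.1, no filter, a stricter filter of 5 FPKM, 2 rescalings, limma without or with a robust trend, 4-library fits, the replicate number as a block, and leaving out each library. Protein sequences were not used here.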

Additional observations from a re-analysis of the deposited data

How the results depend on the processing

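Each member value with a test was set against each alternative. Of these pairs, 195 kept direction and call, 4 changed sign, 2 gained a call and 5 lost one. In CD201-only against double-positive cells, GPC2 was at 0.038 under quantile normalization (range without 1 library -0.074 to 0.035) and SDC2 at -0.028 after median-ratio rescaling. GPC6 was at -0.35 after that rescaling (range without 1 library -0.43 to -0.12), and SDC4 at 0.029, at 0.066 under quantile normalization and at 0.11 without the trend (0.10 to 0.13 without 1 library). In double-negative against CD201-only cells, GPC6 ran from -0.18 to 0.047 without 1 library, and 2888 to 4903 genes were called. SDC2 was at 0.21 in double-negative against double-positive cells after median-ratio rescaling, and GPC4 stayed between 2.41 and 2.90 there. With a pseudocount of 0.1, TIAM1 was at -0.95 and CHST15 at 0.63 in double-negative against CD201-only cells, both further from 0.

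With a minimum of 5 FPKM, which tests fewer genes and leaves out GPC2 and GPC6, calls fell to 5 of the sulfation list in CD201-only against double-positive cells. The syndecan partner list then had 2, 1 and 1 calls in the 3 comparisons in the order double-negative and CD201-only against double-positive and double-negative against CD201-only cells, and the ligand list 10 and 11 in the first and second of these. The partner list had 4 calls in CD201-only against double-positive cells after median-ratio rescaling. In double-negative against CD201-only cells it had 1 without the trend and 1 to 2 without 1 library, the chain synthesis list 2 with 4 libraries and 1 to 2 without 1 library, and the chondroitin list 2 to 7 without 1 library. The cause of the other shifts was not tested.

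Replicate numbers appear in all groups, but the labels do not say that they mark a shared culture or day. Differences between replicates correlated across genes at -0.0727, 0.117 and 0.0761 between groups. With the replicate number as a block limma called 8110, 7189 and 4590 genes in the same order of comparisons, and no call of a member with a test changed. The 2 libraries a group, and values of 1 or 2 fragments for GPC3 and GPC5, limit what could be seen.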

Other observations

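SDC1 and SDC3 can also carry chondroitin sulfate, and the genes that build that chain were counted in the same way. Of 10 expressed genes, 3 rose and 3 fell in double-negative and 3 rose and 5 fell in CD201-only against double-positive cells, where 66.6% and 58.7% of all genes were called, with medians of 0.09 and -0.19. CHPF2, a chain polymerizing factor, was at 25.0 and 25.0 FPKM in double-negative, 23.1 and 23.9 in CD201-only and 50.5 and 48.3 in double-positive cells, and fell in both CD13-negative groups (log2 change -0.96 and -1.04, limma adjusted p = 1.42e-06 and 1.29e-06). In CD201-only against double-positive cells CHPF, a related factor, fell by 0.38 (limma adjusted p = 0.000142) and CHST15, a sulfotransferase, by 0.81 (limma adjusted p = 0.000245). Both also fell in double-negative against double-positive cells, CHPF at -0.20 (limma adjusted p = 0.00288) and CHST15 at -0.41 (limma adjusted p = 0.00578). DSE, the dermatan sulfate epimerase, rose in double-negative against CD201-only cells (0.35, limma adjusted p = 0.00337). CSGALNACT1, which starts the chondroitin chain, was at 2.24 and 1.74 FPKM in double-negative, 0.712 and 0.935 in CD201-only and 0.965 and 1.11 in double-positive cells. It passed the filter only through the double-negative libraries, so no test is given for it. CSGALNACT1 is among the 3 genes counted as risen in double-negative against double-positive cells. In double-negative against CD201-only cells 6 of the 10, CSGALNACT1 included, rose and 1 fell, 7 calls in all, where 37.9% of all genes were called. Calls numbered 4 without double-negative replicate 1, 2 without double-negative replicate 2, and 4 without either CD201-only library.

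The ratio of SULF2 to SULF1, chosen after its values were seen, was 1.95 and 1.87 in double-negative, 5.43 and 5.41 in CD201-only and 1.26 and 1.11 in double-positive libraries. The ratio of SDC2 to SDC4, also chosen afterwards, was 1.64 and 1.68, 0.879 and 0.865, and 0.899 and 0.916 in the same order. A single scaling factor per library leaves both ratios as they are.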
